A study of Mus musculus with 36 samples.

Results

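Cytosolic ribosomal proteins were followed through a day in mouse heart, in cardiac Klf15 knockouts and their controls. They were taken by symbol: Rpl or Rps followed by a digit, with Rpsa, Rplp0, Rplp1 and Rplp2, and without symbols that end in a pseudogene suffix (6 in the table) or that name Rps6 kinases (10). The rule found 86 of the 23352 entries of the expression table. Of these, 77 encode core ribosomal proteins, 46 of the large and 31 of the small subunit, 8 are paralogs of a core gene, and 1, Rps19bp1, encodes a protein that binds Rps19 and is no part of the ribosome. The 76 mitochondrial ribosomal proteins, whose symbols begin with Mrp, served as the comparison.

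Heart apex RNA came from C57BL/6 males (C57BL/6J in the husbandry text) of 11 to 12 weeks kept in 12 h of light and 12 h of darkness. The cK15 group is labelled KLF15 KO, and the control group carries the α-MHC cre transgene, driven by a promoter active in cardiomyocytes. There were 6 times 4 h apart from 12 am (read as midnight), with 3 libraries for each time and genotype, 18 per genotype and 36 in all. The labels do not tie libraries to animals, and p-values cover only the spread among libraries, which may be technical.

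A ribosome builds protein from mRNA, and its cytosolic form holds a single copy of nearly every ribosomal protein, so these genes are usually expressed together at high level. Their mRNAs commonly begin with a run of pyrimidines at the 5′ end, the TOP motif, through which mTOR and Larp1 control their translation. Mammalian genomes also carry many processed pseudogenes of ribosomal protein mRNAs, which are near-identical copies and complicate the assignment of short reads. A few core proteins have a paralog that can take their place, such as Rpl3l, which is restricted to heart and skeletal muscle and there replaces Rpl3.

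Klf15, the targeted gene, lay between 0.406 and 2.91 FPKM in the 18 control libraries and between 0 and 0.326 in the 18 cK15 libraries, 13 of which list it at 0. FPKM counts fragments per kilobase of gene, scaled to the size of the library. All 8 heart muscle markers fixed for the check were measured, and their sum ran from 58358 to 119464 FPKM per library, against at most 4.84 for 7 lymphocyte markers and 4.03 for 5 adipocyte markers. In 12 libraries, 1 in each group, the muscle gene Myl2 lay between 29700 and 35773 FPKM, below the 43872 to 71845 of the other 24, and the FPKM of all genes summed to 534039 to 596531 against 596688 to 691583. These 12 libraries recur below because many ribosomal protein genes differ between the 2 sets. They were picked by their Myl2 level and are not groups of the study. They were cK15 replicate 1 and control replicate 2 at every time but 8 pm, and replicate 4 of both genotypes at 8 pm. The set is thus nearly a whole numbered series in each genotype.

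Together the 86 genes held 4.17% ± 0.271 (SD, n = 36) of the summed FPKM of a library, between 3.68% and 4.65%. Levels of the 77 core genes nevertheless spanned a 9411-fold range of mean FPKM, from Rpl15 at 0.206 to Rps21 at 1936. After Rps21 came Rplp2 at 1394 FPKM, Rpl36 at 1352 and Rpl13a at 950, and the 5 highest members held 25.2% of the members' sum. Rplp2 is an acidic protein of the lateral stalk, the arm of the large subunit that recruits elongation factors. In all, 46 core genes reached 100 FPKM, 14 lay between 10 and 100, and 17 stayed below 10. At the low end stood Rps6, the small-subunit protein phosphorylated by the S6 kinases, at 0.818 FPKM, Rpl10a at 1.05 and Rpl27a at 1.13. Since every cytosolic ribosome holds Rpl15 and Rps6, their levels here are not read as their mRNA content.

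The low levels went with exact copies of the coding sequence elsewhere in the annotation. For each core gene, the coding sequence was cut into all stretches of 100 bases, the read length, and the share found unchanged in a transcript of another gene of GENCODE vM21 was counted. All 17 core genes below 10 FPKM had over 99% of their stretches in another gene. The 25 core genes with over 99% shared had a median level of 3.37 FPKM, against 210 for 12 genes with 75 to 99% shared, 432 for 17 genes with 50 to 75%, 625 for 11 genes with 25 to 50% and 724 for 11 genes with under 25%. Across the 76 core genes with a coding sequence of 100 bases or more, Spearman's rho between the shared percentage and the level was -0.77, a description over genes that share the same libraries. Of the genes with over 99% shared, 3 were still above 100 FPKM: Rpl38 at 533, Rpl24 at 228 and Rpl11 at 117. Rpl7a had the most copies, with 123 genes sharing a stretch of 50 bases. Of the 76 mitochondrial ribosomal protein genes, 64 had no stretch of 100 bases in common with another gene, and their median level was 43.5 FPKM with 9 below 10. How reads that map to more than 1 gene were counted is not stated in the labels. Any fold change of a member with shared stretches is therefore uncertain as a statement about that gene alone.

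**Figure D1:**
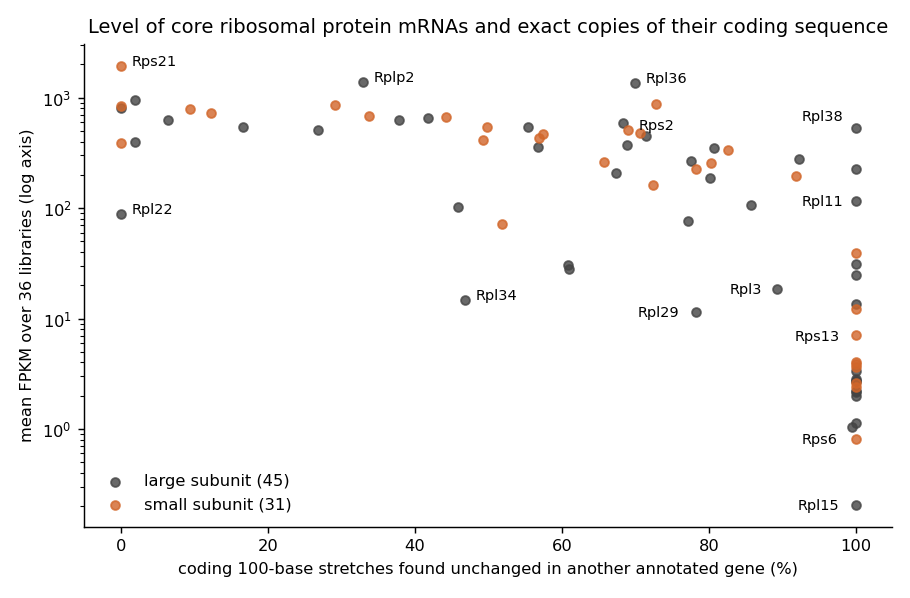
Mean FPKM over the 36 libraries (log axis) against the percentage of each core gene's coding 100-base stretches that occur unchanged in another annotated gene. Points are 45 large-subunit and 31 small-subunit genes, and all genes below 10 FPKM sit at the right edge, above 99%.

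The comparison of cK15 with control asked whether loss of Klf15 in the heart changed these mRNAs. Differences were taken on log2(FPKM + 1), which understates changes of low genes, and tested with limma in the 10599 genes whose mean reached 1 FPKM. A gene was called at a Benjamini-Hochberg adjusted p under 0.05. Tests covered 82 members, since Rpl10l was listed at 0 in every library and Rpl15, Rpl39l and Rps6 fell under the level filter. Averaged over the 6 times, 8 of the 82 (9.76%) were called, 1 higher and 7 lower in cK15, where 11.2% of all tested genes were called, 4.06% higher and 7.18% lower. The share of calls was therefore near that of genes in general. Direction was less balanced: 66 of the 82 fold changes (80.5%) lay below 0 against 54.2% of all tested genes, and the median was -0.10 against -0.012. The mitochondrial ribosomal proteins lay on the other side, with 18 of 76 below 0, a median of 0.063, and 5 higher and 2 lower calls. This offset rested in part on which libraries entered: without cK15 replicate 1 the medians were -0.043 and -0.036, and without control replicate 3 they were -0.048 and -0.029, both of which leave fewer low-Myl2 libraries or fewer others in 1 genotype. Without cK15 replicate 3 the medians were -0.19 and -0.0056, and without control replicate 2 they were -0.16 and 0.0052. These fits are unbalanced too. After median-ratio rescaling 606 genes of the table were called higher and 637 lower, against 430 and 761 as deposited. Bulk RNA does not tell fewer cells of a type from less RNA per cell.

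**Figure D2:**
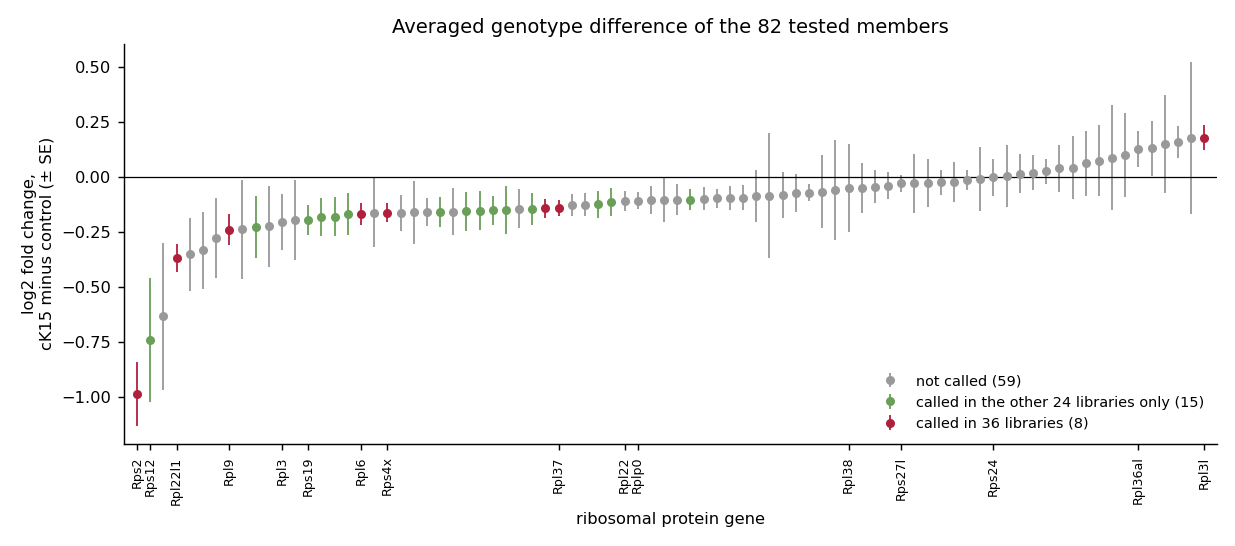
Averaged log2 fold change of each tested member, cK15 minus control, with its standard error, in order of size with some genes named on the axis. Of 82 genes, 8 were called in all 36 libraries and 15 others when the 12 libraries of low Myl2 were left out, and 66 points lie below 0.

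Rps2 had the largest change. It encodes a small-subunit protein near the mRNA entry channel. Its FPKM ran from 566 to 734 with a median of 646 in the 18 control libraries, and from 119 to 643 with a median of 375 in the 18 cK15 libraries. Of the cK15 libraries, 16 lay below every control library. The averaged log2 fold change was -0.98 (SE 0.14, adjusted p = 1.09e-05, limma). At 12 am the cK15 values were 139, 139 and 365, against 599, 729 and 644 in control. At 8 pm they were 119, 150 and 643, against 608, 584 and 686. In the other 4 times the cK15 libraries ran between 332 and 591 FPKM. The 4 cK15 values at or below 150 thus came from 2 times, and the third library of each of those times lay well above them. At 8 pm that higher library, at 643, was the one of low Myl2, while at 12 am the library of low Myl2 was among the low pair. At 12 am the fold change was -1.76 (adjusted p = 0.00366) and at 8 pm -1.46 (adjusted p = 0.0304), while the other 4 times gave -0.51 to -0.74 and no call. The 12 am call ended without cK15 replicate 3, control replicate 3 or control replicate 4 (adjusted p up to 0.0949), and the 8 pm call without any replicate but cK15 replicate 4 (up to 0.364). Rps2 shares 69.0% of its coding stretches with 36 other genes, so its level is uncertain as that of a single gene.

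Rpl22l1, the paralog of the large-subunit protein Rpl22, followed. Its FPKM ran from 61.5 to 101 with a median of 84.5 in control and from 42.6 to 82.2 with a median of 63.4 in cK15. All 18 cK15 libraries lay below the control median, and 6 below every control library. The averaged log2 fold change was -0.37 (SE 0.063, adjusted p = 0.000127, limma). At 12 am the cK15 libraries gave 55.0, 55.0 and 61.6 FPKM against 85.5, 98.6 and 96.4 in control, with no overlap. At 4 am they gave 42.6, 63.0 and 63.5 against 70.4, 88.9 and 101, again with no overlap. At 8 pm the ranges overlapped, with 74.7, 60.1 and 82.2 in cK15 and 83.1, 62.4 and 61.5 in control. The fold change was -0.70 at 12 am (adjusted p = 0.0106), -0.62 at 4 am (adjusted p = 0.0385) and 0.070 at 8 pm (adjusted p = 0.997). Both calls depended on the replicates: that at 12 am ended without cK15 replicate 3, control replicate 3 or control replicate 4 (adjusted p up to 0.158) and after median-ratio rescaling (0.0782), and that at 4 am without any but control replicate 2 (up to 0.385). A limma test of genotype by time, added after the data were seen, called no member, where 0.00943% of all genes were called, and Rpl22l1 was the 1 member at an unadjusted p under 0.05. Rpl22 itself ran from 79.7 to 107 FPKM in control and from 73.0 to 98.7 in cK15, a log2 fold change of -0.11 (adjusted p = 0.143). Rpl22l1 shares 59.2% of its coding stretches of 100 bases with 1 other gene, so its level is uncertain as that of a single gene. Rpl22 shares none of its own.

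**Figure D3:**
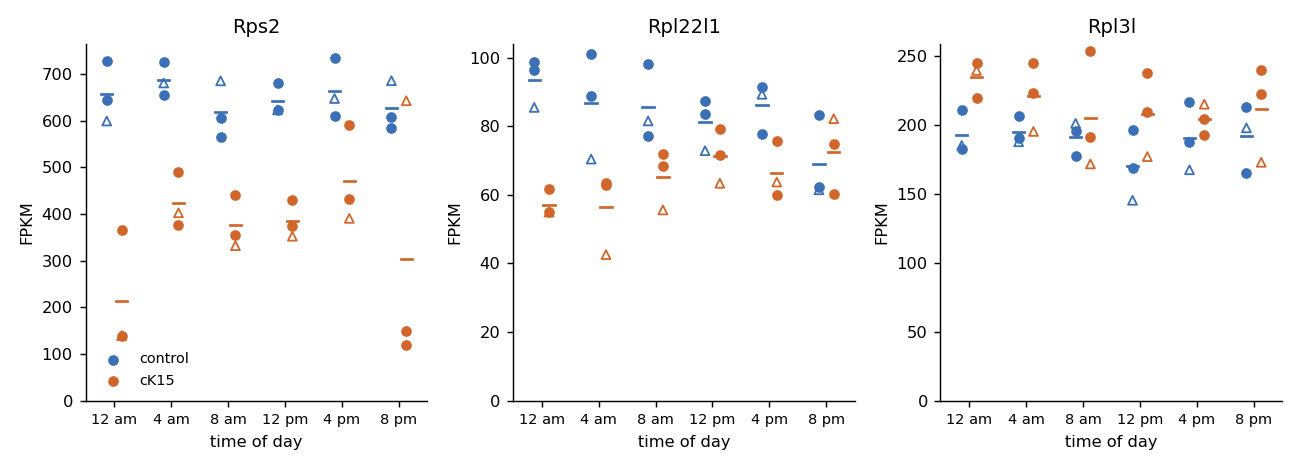
FPKM of Rps2, Rpl22l1 and Rpl3l in each library by time of day. Circles are the 24 other libraries, triangles the 12 libraries of low Myl2, and bars the mean of 3 libraries. For Rps2, 16 of the 18 cK15 points lie below all control points.

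Rpl3l was the 1 member called higher. Its FPKM ran from 145 to 217 with a median of 189 in control and from 172 to 253 with a median of 217 in cK15. The ranges overlapped widely, and 15 of the 18 cK15 libraries lay above the control median. The averaged log2 fold change was 0.18 (SE 0.057, adjusted p = 0.0413, limma). The call ended in 7 of 19 other settings: without cK15 replicate 3, control replicate 2 or control replicate 4 (adjusted p = 0.123 to 0.308), without a level filter (0.0650), without limma's trend and robust options (0.0518), with the replicate block within genotypes (0.370) and in the 12 libraries of low Myl2 alone (0.527). None of its coding stretches of 100 bases occurs in another gene. Rpl3, the form that Rpl3l replaces in muscle, ran from 11.3 to 26.1 FPKM in control and from 10.02 to 26.2 in cK15, with a log2 fold change of -0.21 (adjusted p = 0.359), and 89.3% of its stretches are shared. Rpl3l and Rps2 lie close together on chromosome 17, on the same strand, at chr17:24727820-24736143 and chr17:24718116-24721929 (GRCm38, GENCODE vM21). Between them lies Ndufb10, a complex I subunit gene, with a log2 fold change of 0.033 (adjusted p = 0.921). The antisense gene Snhg9 overlaps Rps2 and was not called either, with a log2 fold change of -0.84 (SE 0.75, adjusted p = 0.571, limma). Its FPKM ran from 0 to 36.6 in control and from 0 to 47.5 in cK15, too wide a spread to show whether it changed. The labels do not state whether the counting used strand, so reads of Rps2 and Snhg9 cannot be told apart.

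Smaller falls were seen in other members. Rpl9, a large-subunit protein, fell from a control median of 309 FPKM (233 to 364) to 263 (193 to 325), a log2 fold change of -0.24 (adjusted p = 0.0243, limma). Rpl6 had medians of 195 (170 to 233) in control and 174 (144 to 206) in cK15, a log2 fold change of -0.17 (adjusted p = 0.0248). Rps4x, the X-linked small-subunit gene, had medians of 694 (603 to 816) and 632 (512 to 703), a log2 fold change of -0.16 (adjusted p = 0.00878). Rpl37 had medians of 284 (240 to 312) and 253 (224 to 296), a log2 fold change of -0.14 (adjusted p = 0.00765). Each of these 4 calls ended in 5 to 7 of 19 other settings, and in each case leaving out control replicate 4 was among them. In all 4 the ranges of the 2 genotypes overlapped, and 16 to 17 of the 18 cK15 libraries lay below the control median. Of their coding stretches of 100 bases, Rpl9 shares 92.2% with other genes, Rpl6 80.1%, Rpl37 77.6% and Rps4x 44.2%. These genes lie at chr5:65388364-65391444 (Rpl9), chr5:121204481-121209241 (Rpl6), chrX:102184941-102189394 (Rps4x) and chr15:5116645-5119140 (Rpl37), and Rpl22l1 at chr3:28805436-28807424.

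Promoter windows are shown for 7 called genes and for Rpl22, the partner of Rpl22l1, because the TOP motif is the sequence feature for which this family is known. RefSeq start sites (GRCm38.p6) were found for 65 of the 86 members. The RefSeq starts of Rps2, Rpl22l1, Rpl6, Rpl3l, Rpl9 and Rps4x lie inside the genes as GENCODE draws them, that of Rps2 furthest in. Those of Rpl37 and Rpl22 lie before the GENCODE genes. Each window runs from 40 bases before to 20 bases from the start, 5′ to 3′ on the gene's strand. Capitals mark a C followed by at least 5 more pyrimidines that begins within 20 bases of the start.
Rps2 (chr17:24720023-24720082, + strand): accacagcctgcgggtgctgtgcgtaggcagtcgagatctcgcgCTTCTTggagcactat
Rpl22l1 (chr3:28805468-28805527, + strand): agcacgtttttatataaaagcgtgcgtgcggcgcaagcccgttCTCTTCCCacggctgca
Rpl6 (chr5:121204461-121204520, + strand): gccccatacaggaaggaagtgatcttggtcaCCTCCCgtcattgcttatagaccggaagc
Rpl3l (chr17:24727786-24727845, + strand): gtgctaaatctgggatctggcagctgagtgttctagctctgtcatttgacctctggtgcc
Rpl9 (chr5:65391412-65391471, - strand): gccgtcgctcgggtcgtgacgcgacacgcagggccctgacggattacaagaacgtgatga
Rps4x (chrX:102189372-102189431, - strand): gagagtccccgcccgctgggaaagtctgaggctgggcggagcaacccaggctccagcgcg
Rpl37 (chr15:5116573-5116632, + strand): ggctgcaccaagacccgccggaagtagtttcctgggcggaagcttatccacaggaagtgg
Rpl22 (chr4:152325686-152325745, + strand): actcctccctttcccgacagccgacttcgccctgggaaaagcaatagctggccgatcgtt

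The tract occurred in the windows of Rps2, Rpl22l1 and Rpl6, the called genes with the 1st, 2nd and 4th largest fall, and in none of the other 5 shown. The Rpl6 tract (offset -9, length 6) ends before the RefSeq start, so it lies outside the mRNA as RefSeq draws it. It lies inside the gene as GENCODE draws it, so the 2 annotations differ on its place. Those of Rps2 and Rpl22l1 lie after the RefSeq start. Over the family the tract was present in 36 of the 57 core genes with an entry (63.2%), against 31.4% of all 32851 promoter entries. These shares count tracts on either side of the RefSeq start, such as that of Rpl11, which also ends before it. The Rpl11 tract too lies inside the gene as GENCODE draws it. In the full entries, 250 bases before to 50 after the start, searched on both strands, CCGGAAG (the core that ETS factors such as GABP bind) occurred in 40.4% of the 57 core genes against 8.86% of all entries. AAGATGG, the core of YY1 sites, occurred in 14.0% against 6.34%, and GGGCGG, the GC box of Sp1, in 59.6% against 35.7%. CCACCC, the CACCC box that Krüppel-like factors can bind, was held by 28.1% of the core genes and 31.5% of all entries, and TATAAA by 8.77% and 13.6%. A match is a stretch of letters only, and an absent match says nothing of the factor.

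The number of calls depended on which libraries entered. With the 12 libraries of low Myl2 left out, 22 of 82 members (26.8%) were called, 1 higher and 21 lower, where 11.1% of all genes were called, 4.42% higher and 6.66% lower. Of the 8 members called in all 36 libraries, 7 kept their call, Rps2, Rpl22l1, Rpl3l, Rpl9, Rpl6, Rps4x and Rpl37. Among the 15 genes that joined were Rps19 (-0.20, adjusted p = 0.00608), Rps14 (-0.14, adjusted p = 0.0229), the stalk protein Rplp1 (-0.19, adjusted p = 0.0181) and Rps21 (-0.17, adjusted p = 0.0173). Rps19 and Rps14 are small-subunit proteins whose loss causes Diamond-Blackfan anaemia and the anaemia of the 5q deletion. Within the 12 libraries alone, in a fit of genotype plus time, 7 members were called, all lower, among them Rpl9, Rpl21, Rps4x, Rps14, Rps18 and Rps19, where 5.43% of all genes were called, 1.90% higher and 3.53% lower. In all 36 libraries with a term for the set, 34 members (41.5%) were called, 1 higher and 33 lower, where 20.5% of all genes were called, 8.53% higher and 11.9% lower. Calls were more frequent at high level. Among genes of at least 100 FPKM in the 24 libraries, 19 of 48 members (39.6%) and 26.6% of all 717 genes were called. At that level with the term for the set, 60.4% of the 48 members and 42.0% of all genes were called. In all 36 libraries without the term, the shares were 14.6% and 20.1%. The median fold change of the tested members was -0.095 in the 24 libraries and -0.12 in the 12, against -0.011 and -0.018 for all tested genes.

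Pairing the libraries by their number moved the count in either direction. With each genotype's number treated as a series across times, only Rps2 and Rpl22l1 stayed called, where 3.26% of all genes were called. With cK15 and control libraries of the same time and number treated as pairs, 19 members were called, 1 higher and 18 lower, the 8 called without a block among them, where 19.3% of all genes were called. The cK15 libraries are numbered 1, 3 and 4 and the control libraries 2, 3 and 4. The libraries of cK15 number 1 and control number 2 therefore had no partner in that fit. Left-out libraries mattered too. Without control replicate 4 only Rps2 and Rpl22l1 stayed called (7.80% of all genes), without control replicate 3 the count was 5 (7.14%), without cK15 replicate 3 it was 14 (11.1%) and without control replicate 2 it was 17 (11.3%). After rescaling to the median ratio of all genes, the split was 1 higher and 3 lower, where 11.7% of all genes were called.

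The share of FPKM held by all 86 genes together showed the same direction. Among the 24 libraries, it was 4.30% to 4.65% with a median of 4.53% in control and 3.96% to 4.28% with a median of 4.06% in cK15, without overlap. Among the 12 libraries of low Myl2, it was 3.96% to 4.18% in control and 3.68% to 3.94% in cK15, again without overlap. Over all 36, the mean share was 4.35% ± 0.242 (SD, n = 18) in control and 3.996% ± 0.164 (SD, n = 18) in cK15. Leaving Rps2 out moved the difference of these means from -0.353 to -0.306 percentage points. Without Rps2 the ranges overlapped in both sets, at 4.202% to 4.54% against 3.86% to 4.21% among the 24 libraries and 3.84% to 4.07% against 3.62% to 3.92% among the 12. No p is given for this sum, because the members were chosen with results of these data known.

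**Figure D4:**
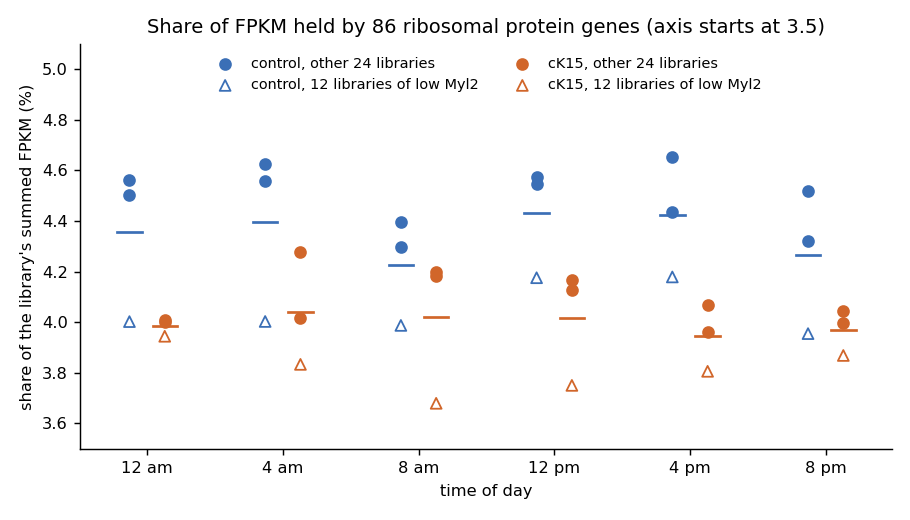
Share of each library's summed FPKM held by the 86 genes, by time of day and genotype, on an axis that starts at 3.5%. Bars are means of 3 libraries. Within the circles (24 libraries) and within the triangles (12 libraries of low Myl2), every control point lies above every cK15 point.

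Markers of some other cell types moved with genotype as well. In the averaged comparison 7.18% of all tested genes were called lower and 4.06% higher. Among fibroblast markers 6 of 7 were called lower in cK15, among them Col3a1 (log2 fold change -0.48, adjusted p = 5.66e-08), and their sum ran from 1564 to 1928 FPKM in control and 1316 to 1609 in cK15. Among macrophage markers 7 of 9 were called lower, with sums of 174 to 269 in control and 155 to 247 in cK15. Of the 8 heart muscle markers, 2 were called higher, Actc1 (0.15, adjusted p = 0.0177) and Ryr2 (0.19, adjusted p = 0.0432), and their summed level overlapped almost fully between genotypes. None of 7 endothelial markers was called, but all 7 fold changes lay below 0, with a median of -0.10. With a term for the low-Myl2 set 4 of them were called lower, and in the other 24 libraries 1 was. Of all genes, 11.9% and 6.66% were called lower in those fits. In all 36 libraries without the term, 1 of 5 mural and 1 of 3 atrial markers were called lower. None of 4 blood and none of 4 skeletal muscle markers was called there. Of 4 RNAs that are retained in the nucleus, 1 was called lower, Neat1 (-0.61, adjusted p = 0.0151). The level of the 4 summed to 27.3 to 66.5 FPKM in control and 10.4 to 39.7 in cK15, their median fold change was -0.39, and their median log2 difference between the 12 libraries of low Myl2 and the other 24 was 0.34. The part of these cell types and of nuclear RNA content in the lower ribosomal protein levels was not tested.

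Genes outside the symbol rule that work beside the ribosome gave the following. Of all tested genes, 11.2% were called in this comparison, 4.06% higher and 7.18% lower. Gnb2l1, also named Rack1, is a scaffold protein of the small subunit and ran from 590 to 707 FPKM in control and from 507 to 649 in cK15. Its log2 fold change was -0.17 (SE 0.029, adjusted p = 0.000115, limma). Fau, which encodes a ribosomal protein fused to a ubiquitin-like protein, was not called (-0.047). Of 11 elongation and termination genes, 3 were called lower, namely Eif5a (-0.17, adjusted p = 0.00612), Eef1b2 (-0.12, adjusted p = 0.0159) and Eef2 (-0.085, adjusted p = 0.0319). Eef1a2, the elongation factor of adult muscle and neurons, was called higher (0.13, adjusted p = 0.00695). None of 35 initiation factor genes was called, and their median fold change was -0.011. Among 42 genes of ribosome biogenesis 3 (7.14%) were called, all lower: Pes1 (-0.26, adjusted p = 0.00622), Polr1b, an RNA polymerase I subunit (-0.22, adjusted p = 0.00893), and Taf1b (-0.23, adjusted p = 0.0428). That share is near the share of all genes called lower. Of 17 other mRNAs with a TOP motif, 2 (11.8%) were called lower, Gnb2l1 and Eef2, which stand in the lists above too. None of 15 genes that control ribosomal protein synthesis (mTOR, Tsc1, Larp1, Myc, Gabpa and others) was called.

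The remaining paralogs and the genes named for their roles were not called in the averaged comparison. Rps27l, a p53 target, was far more abundant than Rps27 as measured, at 372 against 2.60 FPKM, and all of the coding stretches of Rps27 but none of those of Rps27l occur in another gene. Rpl7l1 stood at 17.9 FPKM against 660 for Rpl7, and Rpl36al at 32.7 against 31.1 for Rpl36a. Rpl39l stood at 0.256 against 542 for Rpl39, and Rps4y2 at 5.83 against 662 for Rps4x. Fold changes of the tested ones were -0.030 for Rps27l, -0.014 for Rpl7l1, 0.13 for Rpl36al and -0.16 for Rps4y2, a locus annotated as a transcribed processed pseudogene. Of the lateral stalk, Rplp0 gave -0.11 (adjusted p = 0.0655), Rplp1 -0.14 (adjusted p = 0.222) and Rplp2 -0.094 (adjusted p = 0.362). Rpl5 and Rpl11, which with 5S RNA can hold back Mdm2 and so stabilise p53, gave -0.051 (adjusted p = 0.861) and -0.067 (adjusted p = 0.878). Rps24 and Rpl35a, which are mutated in Diamond-Blackfan anaemia, gave -0.0010 and -0.073. Rpsa, also a laminin receptor, gave -0.072 (adjusted p = 0.260), Rps3, which also acts in DNA repair, -0.098 (adjusted p = 0.136), and Rpl13a, a part of an inhibitory complex on inflammatory mRNAs, -0.095 (adjusted p = 0.317). Rps20, Rpl23 and Rpl10a gave -0.16, -0.039 and -0.28, the last from a level near 1 FPKM with an SE of 0.18. Rpl38, required for the translation of Hox mRNAs in the embryo, gave -0.051 (adjusted p = 0.928). Rps19bp1 gave 0.040 (adjusted p = 0.886).

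By time, the median fold change of the 82 members was -0.17 at 12 am, -0.094 at 4 am, -0.046 at 8 am, -0.11 at 12 pm, -0.18 at 4 pm and -0.059 at 8 pm. Calls numbered 2 at 12 am (Rps2 and Rpl22l1), 1 at 4 am (Rpl22l1) and 1 at 8 pm (Rps2), all lower. Of all genes, 1.21%, 1.12% and 1.12% were called at those times, and 1.09%, 0.962% and 0.887% were called lower. At 8 am, 12 pm and 4 pm limma called no member (3, 2 and 6 at an unadjusted p under 0.05), where 1.06%, 0.745% and 1.30% of all genes were called and 0.887%, 0.698% and 1.10% were called lower.

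No member had a 24 h rhythm past the threshold in either genotype. A cosine of 24 h was fitted by limma to the 18 libraries of each genotype. In control, 0 of 82 members passed, also at an unadjusted p under 0.05, where 2.80% of all genes passed after adjustment and 14.0% unadjusted. In cK15, 0 passed and 7 reached an unadjusted p under 0.05, where 1.08% and 8.95% of all genes did. The median amplitude was 0.063 in control and 0.066 in cK15 on the log2 scale, against 0.092 and 0.084 over all genes. The difference in rhythm between genotypes was not called for any member (2 unadjusted, Rpl30 and Rpl22l1), nor for any gene of the table (0%). Differences among the 6 times, averaged over genotypes, were called for 1 member, Rps4y2 (adjusted p = 0.0302), where 3.91% of all genes were called. At 4 am its FPKM was 3.95, 7.13 and 3.35 in control and 3.19, 3.90 and 2.13 in cK15. At 8 pm it was 7.22, 8.37 and 7.80 in control and 6.18, 8.18 and 7.77 in cK15, so that all 6 libraries of 8 pm lay above 5 of the 6 of 4 am. The call ended in 8 of 17 alternatives, among them without the 12 libraries of low Myl2 (adjusted p = 0.293) and without cK15 replicate 1 or 4 or any control replicate.

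Many members also differed between the 12 libraries of low Myl2 and the other 24, which are spread evenly over the groups. Of 82 members, 14 (17.1%) were lower in all 12 than in any of the 24, where 1.92% of all genes were, and none was higher in all 12, where 3.52% of all genes were. All 14 had a mean of at least 100 FPKM, and at that level the shares were 14 of 48 members (29.2%) and 79 of all 717 genes (11.0%). Among them were Rpl4, Rpl7, Rpl11, Rpl19, Rpl24, Rpl35, Rpl38, Rps3a1, Rps14, Rps18, Rps24 and Rps25. Rpl38 had the widest gap, with 254 to 338 FPKM and a median of 320 in the 12 and 452 to 827 with a median of 642 in the 24, a log2 difference of -1.06. Rps18 ran from 328 to 394 in the 12 and from 484 to 781 in the 24. The 48 members of at least 100 FPKM had a median log2 difference of -0.30, against -0.064 for all 717 genes of that level and -0.023 for the mitochondrial ribosomal proteins. Not all members moved this way. Rpl26 gave 0.85, with 76.8 to 192 FPKM in the 12 and 25.7 to 140 in the 24, and Rps29, a gene of low measured level, gave 1.37. Rps2, called between genotypes, gave 0.064. Heart muscle markers had a median difference of -0.56 and fibroblast markers of -0.029. The muscle list holds Myl2, by which the 12 libraries were picked, so its median is not independent of that choice. The part of muscle RNA content in the members' difference was not tested.

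**Figure D5:**
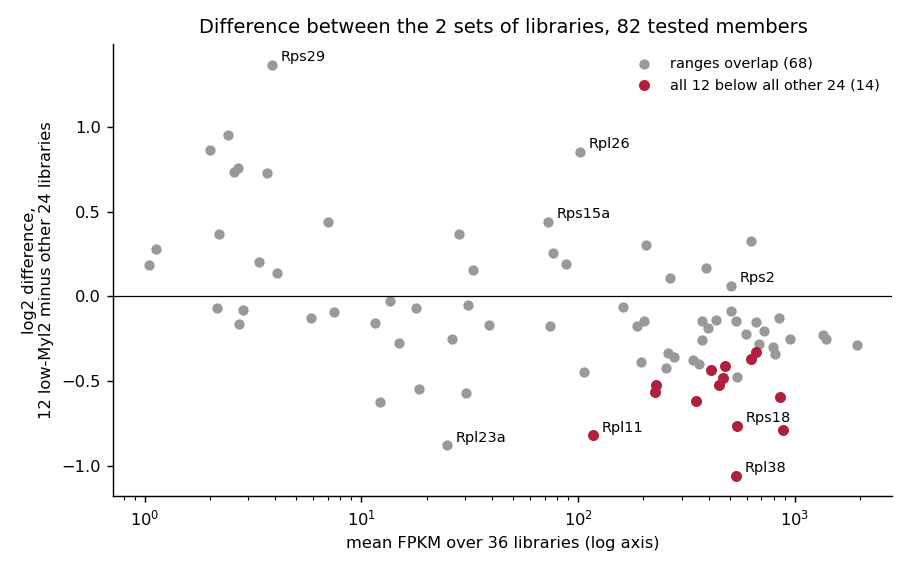
Log2 difference of each tested member between the 12 libraries of low Myl2 and the other 24, against its mean FPKM (log axis). The 14 genes whose 12 values all lie below the other 24 are all above 100 FPKM, and Rpl38 lies lowest at -1.06.

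Members of high level varied together across libraries once group means were removed, and those of low level did so little. Pearson's r between pairs of the 48 members of at least 100 FPKM had a median of 0.76 over the 36 libraries, against 0.15 for pairs of all 717 genes of that level. In the 24 libraries without low Myl2 the median was 0.29, against 0.25 for all genes of that level and 0.44 for the 17 mitochondrial ribosomal proteins of that level. The 34 members under 100 FPKM had a median of 0.072 in the 36 libraries and 0.10 in the 24. The pairs share the libraries and their scaling, so these are descriptions. In those 24 libraries Rpl37a, Rpl32 and Rpl4 followed the mean of the other members most closely (r = 0.93 each), and Rps10 ran against it (r = -0.89), as did Rps18 (-0.64), Rpl30 (-0.62) and Rps15a (-0.61). These 7 were chosen after their values were seen. In 10 of the groups the 24 libraries are replicate numbers 3 and 4 alone. These correlations therefore largely repeat the difference between those numbers that is given at the end.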

How the data were processed

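The authors deposited FPKM per gene and library in a table for each genotype. The tools GSNAP and HTSeq and the build mm10 stand in the submitters' processing notes, with no version or role, and the annotation is not stated. No whole-read step was recovered from low values, so depth is unknown and no counting interval is given. An exact 0 is only read as listed at 0, since Ttn is listed at 0 in all 36 libraries. Per the labels, RNA was depleted of ribosomal RNA and sequenced as stranded pairs of 100 bases in pools of 3 libraries.

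Genes with a mean of at least 1 FPKM were tested with limma 3.58.1 (R 4.3.3) on log2(FPKM + 1), with 12 group means, variance moderation by trend and robust to outliers, and Benjamini-Hochberg adjustment over 10599 genes. The scripts were tested on simulated data. Named genes were the called members, fixed paralog pairs, the 5 highest and lowest levels, genes fixed for their roles and up to 3 called genes of each list; some of these are not reported here. The members and lists were chosen with earlier results of these data known. Deviations of cK15 and control libraries of the same time and number from their group means correlated at 0.157 to 0.508, while numbers within a genotype correlated at -0.322 to 0.554 across times. Both blocks were therefore run, the first added after the data were seen.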

Additional observations from a re-analysis of the deposited data

How the results depend on the processing

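The averaged count of 8 called members was 34 with a term for the 12 libraries of low Myl2, 22 without those libraries, 4 after median-ratio rescaling, 2 with the replicate block within genotypes, 19 with the replicate block across genotypes, and 2 to 17 with 1 replicate number left out. It was 2 without control replicate 4, 5 without control replicate 3, 14 without cK15 replicate 3 and 17 without control replicate 2. The median fold change kept its sign in all alternatives, from -0.19 without cK15 replicate 3 and -0.16 without control replicate 2 to -0.043 without cK15 replicate 1 and -0.048 without control replicate 3. Each of these leaves the 12 low-Myl2 libraries unbalanced between genotypes. Among 19 alternatives Rps2 and Rpl22l1 lost their averaged call only within those 12 libraries alone (adjusted p = 0.103 and 0.168), and the other 6 genes lost theirs in 5 to 7 of them, without any change of sign. At 12 am, 2 calls became 1 after median-ratio rescaling, 4 with the term for the set, and 0 to 2 with a replicate left out. At 4 am, 1 call became 0 without a filter, after median-ratio or quantile scaling, without limma's trend, and without the 12 libraries, and 0 to 1 with a replicate left out. At 8 pm, 1 call became 0 without a filter and 0 to 1 with a replicate left out. At 4 pm, 0 calls became 7 with the term for the set, 2 without the 12 libraries, 1 with the replicate block across genotypes and 0 to 1 with a replicate left out. At 8 am and 12 pm leaving out a replicate gave 0 to 1. Shares of all genes called at single times in these alternatives are not given, so the counts are not read as particular to the members. In the averaged fit the term for the set raised the share of all genes called from 11.2% to 20.5%. The replicate block gave 1 rhythmic member in cK15. The call of Rps4y2 among times ended (0 calls) without a filter and with the block across genotypes, leaving out a replicate gave 0 to 1, and without the 12 libraries another member was the 1 called. No alternative gave a rhythmic member in control or a rhythm difference. The cause of these changes was not tested. The share of FPKM kept its direction without Rps2.
Levels of members with exact copies depend on how multi-mapping reads were counted, which limits every comparison between members. Depth is unknown. The median SE of a fold change was 0.17 for core genes with over 99% of coding stretches shared and 0.063 for those with at most 50%.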

Other observations

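In the 10 groups in which replicate numbers 3 and 4 both lie outside the low-Myl2 set, number 4 was lower than number 3 in all 10 for 15 members and higher in all 10 for 1, Rps10. Together these are 19.5% of the 82 tested members, against 4.71% of all tested genes. The 15 were Rpl3l, Rpl11, Rpl13a, Rpl14, Rpl31, Rpl32, Rpl34, Rpl38, Rplp0, Rplp2, Rps9, Rps20, Rps24, Rps25 and Rps26. For Rps10 at 4 pm, number 3 gave 298 FPKM and number 4 gave 354 in control, and 221 and 260 in cK15. What the numbers stand for is not given in the labels, and this comparison was chosen after the data were seen. The correlations given above for the 24 libraries rest mostly on the same pairs of libraries, so they are not a separate observation.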
